A study of Xenopus laevis with 90 samples.

Results

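The *Xenopus laevis* gene *pcdh8.2* has a copy on each subgenome of this allotetraploid frog, *pcdh8.2.L* and *pcdh8.2.S*. These 2 genes were followed among 37504 genes measured in embryos of frog 1 and 36504 measured in embryos of frog 2. They were selected on their measured change at 7.5 hours post fertilization (hpf), a lower level in embryos depleted of H3K4me3 than in control embryos of both frogs. The change between treated and control embryos at 7.5 hpf is therefore a description of that choice and carries no test here. The comparisons with and without auxin at 7.5 hpf set libraries of the choice against each other and are likewise given as values. The wild type onset and the values at 6.5 hpf are tested. The injection comparison at 7.5 hpf is tested too, although its control libraries took part in the choice. Its outcome is therefore not read as an effect of injection.

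Protocadherins are transmembrane adhesion proteins of the cadherin superfamily. Members of the protocadherin 8 group are known in *Xenopus* for regulating cell adhesion and the movements of mesodermal cells at gastrulation, and paraxial protocadherin is the best described of them there. Transcription of such zygotic genes begins at zygotic genome activation (ZGA), when the embryo turns from maternal to newly made RNA. H3K4me3, trimethylation of lysine 4 on histone H3, marks promoters of active genes.

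The gene is not called paraxial protocadherin here, because the RefSeq annotation of assembly Xenopus_laevis_v10.1 gives the older names papc and xpapc to its neighbour *pcdh8.L* and lists no older name for *pcdh8.2.L*. *pcdh8.2.L* lies on chromosome 2L from 137967300 to 137973563, and *pcdh8.L* follows 344083 bases further on. *pcdh8.2.S* lies on 2S from 123212039 to 123219632, and *pcdh8.S* follows after 333751 bases. The annotation has 0 genes between the members of either pair. Levels of the neighbours were far below those of *pcdh8.2*. At 7.5 hpf in wild type embryos *pcdh8.L* averaged 0.239 TPM and *pcdh8.S* 0.626 TPM in frog 1, with 0.152 and 0.478 TPM in frog 2.

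Total RNA of whole embryos was sequenced at 5.5, 6.5 and 7.5 hpf, with 3 pools of 3 sibling embryos for each group, time point and frog, and 90 libraries altogether. Treated+IAA embryos received 11 ng of Kdm5b wt mRNA (a demethylase of H3K4), 345 pg of mRNA for the H3.3 mutant that has methionine in place of lysine 4, and 5 ng of TIR1 mRNA at the 1-cell stage, and were moved into 500 µM auxin at 4.5 hpf (the 256-cell stage). Control+IAA embryos received 4 ng of catalytically inactive Kdm5b, 345 pg of wild type H3.3 and 5 ng of TIR1 mRNA with the same auxin. TIR1 lets auxin degrade the degron-tagged injected proteins, so that the depletion is limited to a window before ZGA. Treated-IAA and Control-IAA embryos had the same injections without auxin, the persistent scheme. Wt-IAA embryos were neither injected nor given auxin. All embryos had a wild type genotype by the labels. The study counts the frogs as biological and the pools as technical replicates, so p-values measure the spread between pools of siblings.

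Values are TPM, a gene's transcripts relative to all transcripts of its library, corrected for length. They keep no sequencing depth. Ribosomal RNA genes took 4.04% to 37.4% of TPM in frog 1 and 1.77% to 15.6% in frog 2, and 16712 to 19177 and 17576 to 18386 genes reached 1 TPM. The whole embryo label was checked against markers. In wild type embryos at 7.5 hpf, 6 of 6 maternal, 6 of 8 ectodermal, 6 of 7 mesodermal and 6 of 6 endodermal markers reached 1 TPM in both frogs. The 2 frogs come from tables processed separately, so levels are compared within a frog.

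Both copies switched on late. At 5.5 hpf *pcdh8.2.L* and *pcdh8.2.S* were listed at 0 TPM in all 30 libraries. At 6.5 hpf signal was at the edge of detection. *pcdh8.2.L* was above 0 in 0 of 12 treated, 6 of 12 control and 4 of 6 wild type libraries, with a wild type maximum of 0.0604 TPM. *pcdh8.2.S* was above 0 in 2 of 12 treated libraries (at most 0.0621 TPM), in 8 of 12 control libraries (at most 0.258 TPM) and in 6 of 6 wild type libraries (0.0713 to 0.284 TPM). Treated libraries thus most often read 0 at this stage, at levels too low to compare by fold. At 7.5 hpf both copies were above 0 in all 30 libraries.

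**Figure D1:**
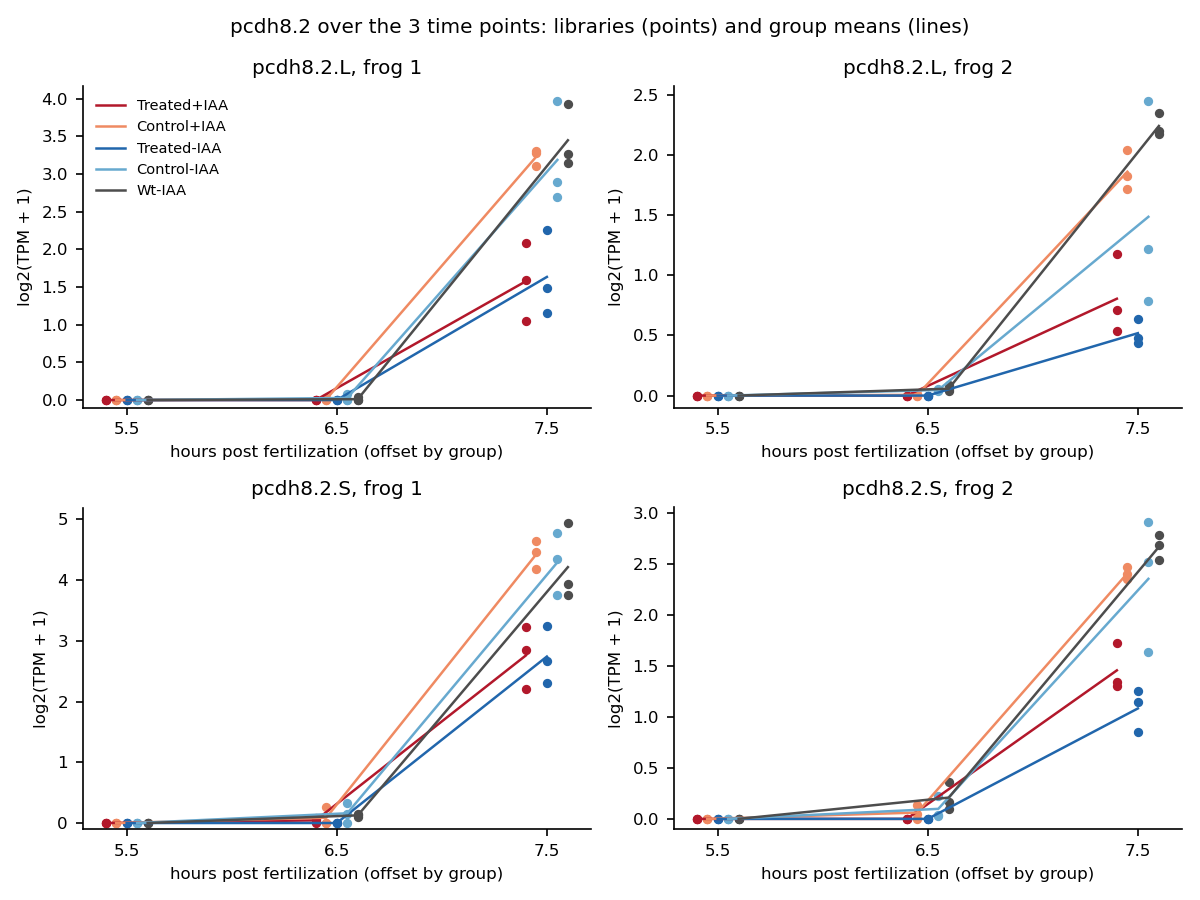
Level of each copy in log2(TPM + 1) at 5.5, 6.5 and 7.5 hpf, with 1 panel per copy and frog. Points are libraries (pools of 3 embryos), lines join group means, and groups are offset sideways for visibility. All libraries are at 0 at 5.5 hpf and at most 0.284 TPM at 6.5 hpf, and the groups part only at 7.5 hpf, with both treated groups lowest.

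In wild type embryos *pcdh8.2.L* had 14.3, 7.83 and 8.65 TPM at 7.5 hpf in frog 1, and 3.53, 4.10 and 3.59 TPM in frog 2. *pcdh8.2.S* had 29.8, 12.5 and 14.3 TPM in frog 1 and 4.79, 5.42 and 5.87 TPM in frog 2. In each frog the lowest of these wild type libraries lay far above every wild type library at 6.5 hpf. From 6.5 to 7.5 hpf *pcdh8.2.L* rose by 3.44 ± 0.232 in frog 1 and 2.19 ± 0.200 in frog 2 on the log2(TPM + 1) scale (± SE, n = 3, limma adjusted p = 5.48e-14 and 1.44e-10). *pcdh8.2.S* rose by 4.09 ± 0.233 and 2.46 ± 0.163 (limma adjusted p = 7.6e-16 and 9.64e-14). The same test called 7.58% of the genes tested in frog 1 and 6.62% in frog 2 higher at 7.5 hpf, and the median of all genes moved by −0.23 and −0.35. The added 1 TPM understates the change of genes that start near 0. Both copies entered the test only through libraries at 7.5 hpf (at least 1 TPM in 15 libraries of frog 1 for each copy, and in 9 and 14 libraries of frog 2 for the L and S copies), and the rise was called without this filter as well. Between 5.5 and 6.5 hpf no change was called (limma adjusted p = 0.975 and 0.811 for *pcdh8.2.L*, 0.632 and 0.254 for *pcdh8.2.S*). With 0.1 TPM in place of 1 TPM added, *pcdh8.2.S* passed the test in this first interval, at 0.93 and 1.29 (limma adjusted p = 0.0342 and 0.00159). With the libraries of the contrast alone it passed in frog 1 as well (0.13, limma adjusted p = 0.0255).

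The question of the depletion experiment is whether H3K4me3 present before ZGA matters for the genes activated there. At 7.5 hpf, under the window scheme, *pcdh8.2.L* had 1.08, 3.25 and 2.01 TPM in Treated+IAA embryos of frog 1, against 7.62, 8.71 and 8.92 TPM in Control+IAA embryos. In frog 2 it had 0.448, 0.635 and 1.26 TPM in Treated+IAA embryos, against 2.29, 2.55 and 3.12 TPM in Control+IAA embryos. The treated and control libraries did not overlap in either frog. *pcdh8.2.S* had 3.59, 8.38 and 6.20 TPM in Treated+IAA embryos and 20.9, 24.0 and 17.2 TPM in Control+IAA embryos of frog 1. In frog 2 it had 1.53, 1.46 and 2.31 TPM in Treated+IAA embryos and 4.11, 4.28 and 4.53 TPM in Control+IAA embryos. Mean levels of treated embryos were 25.1% and 29.4% of control for the L copy, and 29.3% and 41.1% for the S copy, in frogs 1 and 2.

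Under the persistent scheme *pcdh8.2.L* had 1.80, 3.79 and 1.23 TPM in Treated-IAA embryos of frog 1, against 5.50, 6.42 and 14.7 TPM in Control-IAA embryos. In frog 2 it had 0.353, 0.398 and 0.557 TPM in Treated-IAA embryos, against 0.727, 1.33 and 4.48 TPM in Control-IAA embryos. The Control-IAA pools of *pcdh8.2.L* had the widest spread in TPM of the 5 groups, and 1 pool in each frog stood well above the other pools. *pcdh8.2.S* had 5.36, 8.45 and 3.97 TPM in Treated-IAA embryos and 12.4, 19.4 and 26.5 TPM in Control-IAA embryos of frog 1. In frog 2 it had 0.800, 1.22 and 1.38 TPM in Treated-IAA embryos and 2.11, 4.71 and 6.49 TPM in Control-IAA embryos. Treated embryos averaged 25.6% and 20.0% of control for the L copy and 30.5% and 25.5% for the S copy. Here too treated and control libraries of a frog did not overlap.

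**Figure D2:**
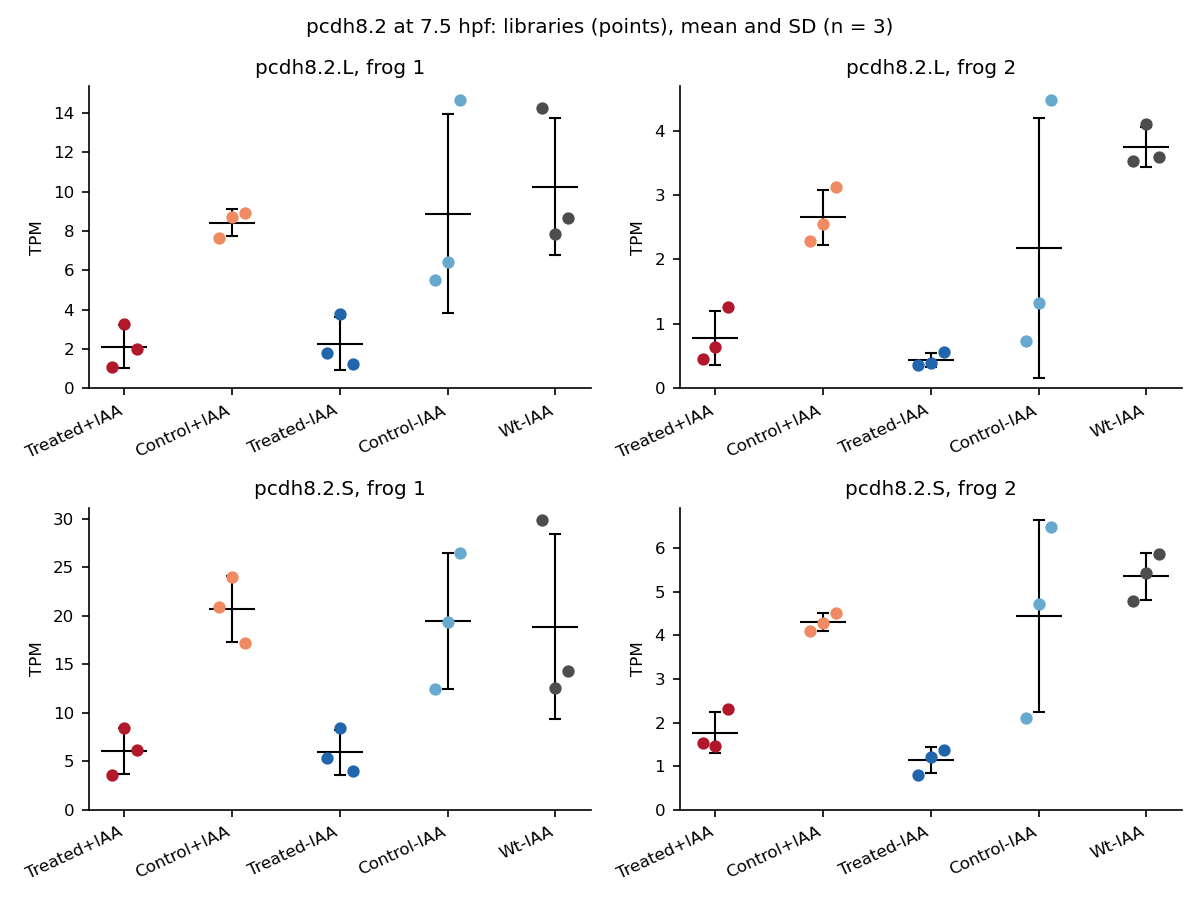
TPM of each copy at 7.5 hpf in the 5 groups, with 1 panel per copy and frog. Points are libraries, and bars give the mean and SD (n = 3). In every panel the 3 treated libraries of a scheme lie below the 3 control libraries of that scheme, and the Control-IAA pools spread widest in frog 2, from 0.727 to 4.48 TPM for *pcdh8.2.L*.

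On the log2(TPM + 1) scale the fitted window change of *pcdh8.2.L* was −1.66 ± 0.232 in frog 1 and −1.06 ± 0.200 in frog 2 (± SE, n = 3), and that of *pcdh8.2.S* was −1.67 ± 0.233 and −0.95 ± 0.163. The persistent change was −1.55 ± 0.232 and −0.97 ± 0.200 for the L copy, and −1.55 ± 0.233 and −1.27 ± 0.163 for the S copy. These values chose the gene and are given without a test. As background, the test called 0.579% and 1.87% of genes lower under the window scheme in frogs 1 and 2, and 0.641% and 2.19% under the persistent scheme. Without overlap, treated below control, were 5.02% and 7.39% of genes in the window scheme and 3.69% and 3.18% in the persistent scheme, in frogs 1 and 2. The shared SE rests on 15 groups of which 10 read at or near 0 for this gene. With only the libraries of the contrast the SE of the persistent change was larger, at 0.419 and 0.394 for *pcdh8.2.L* and 0.329 and 0.314 for *pcdh8.2.S* in frogs 1 and 2. That of the window change was 0.255 and 0.270 for the L and S copies in frog 1, and smaller than the shared value in frog 2, at 0.186 and 0.132. Without pool 1.3 the persistent change of *pcdh8.2.L* was −0.92 in frog 1, and without pool 2.3 it was −0.54 in frog 2.

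At 6.5 hpf, which took no part in the choice, no depletion effect was called, but levels were too low for the test to decide. Changes lay between −0.16 and −0.01 for both copies, schemes and frogs (limma adjusted p from 0.698 to 0.998). Here 0.101% and 0.952% of genes were called lower under the window scheme and 0.0909% and 1.16% under the persistent scheme. The difference between the schemes at 6.5 hpf was not called either (limma adjusted p = 1 in each case). With no library above 0.284 TPM, these levels leave little room for a difference to be detected. The added 1 TPM also holds the changes near 0. Adding 0.1 TPM in its place put the depletion changes at 6.5 hpf between −0.97 and −0.05, again without a call. In frog 1 every Treated-IAA library read 0 for *pcdh8.2.S*, and with 1 TPM added the persistent change was still only −0.16 ± 0.233 (± SE). With the libraries of the contrast alone its SE was 0.104. Even a full loss could thus not be called there, and no conclusion on depletion at 6.5 hpf is drawn.

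**Figure D3:**
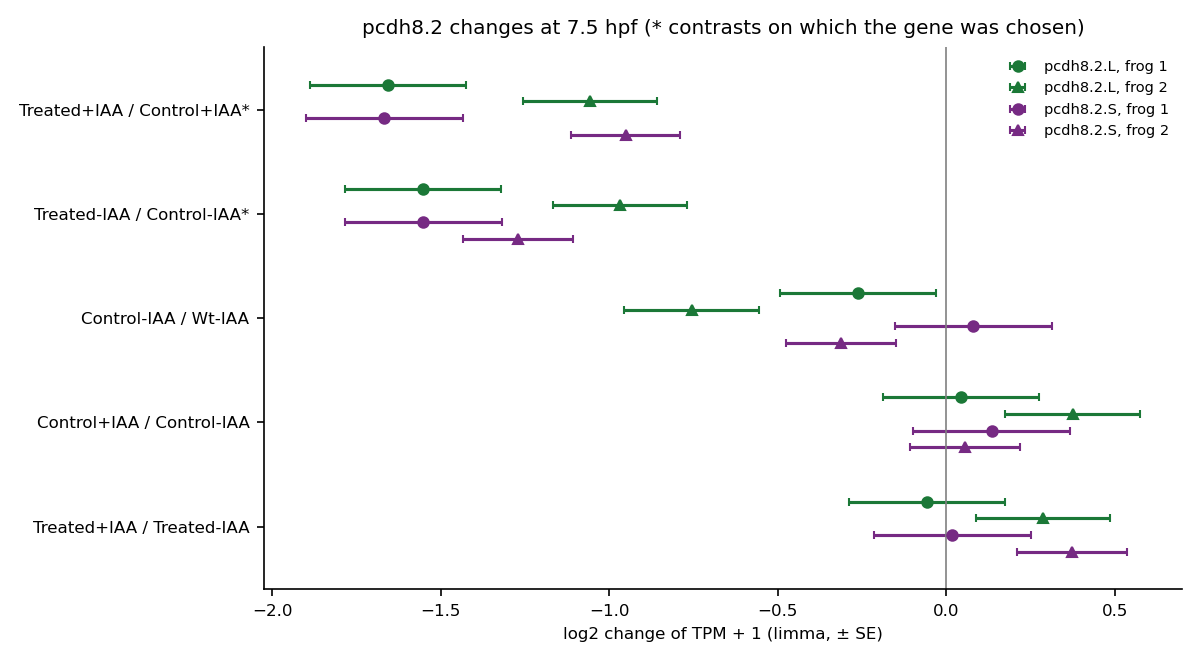
Log2 change of TPM + 1 (limma, bars are SE) of each copy and frog in 5 comparisons at 7.5 hpf. The first pair of comparisons, with a star, chose the gene and lie between −1.67 and −0.95. The injection and auxin comparisons lie between −0.76 and 0.38.

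Between Control-IAA and Wt-IAA embryos the test called no change of the S copy, and a lower L copy in 1 frog. The Control-IAA libraries took part in the choice of the gene, so these tests are not independent of it. Neither the call nor its absence measures an effect of injection apart from that choice. *pcdh8.2.L* averaged 2.18 ± 2.01 TPM in Control-IAA embryos and 3.74 ± 0.311 TPM in Wt-IAA embryos of frog 2 (SD, n = 3). The change was −0.76 ± 0.200 and passed the test (limma adjusted p = 0.0294), where 1.02% of genes were called lower. The call depended on the pools included. The change was −0.44 without pool 2.1 and −0.57 without pool 2.2, both short of the threshold (limma adjusted p = 1 and 0.766). It was −1.26 without pool 2.3, whose Control-IAA library had 4.48 TPM, against 0.727 and 1.33 TPM in the other Control-IAA libraries. The lowest limma adjusted p over the alternative settings was 3.34e-06. With the libraries of the contrast alone the limma adjusted p was 0.953. In frog 1 *pcdh8.2.L* averaged 8.87 ± 5.05 TPM in Control-IAA embryos and 10.3 ± 3.50 TPM in Wt-IAA embryos (SD, n = 3), a change of −0.26 ± 0.232 (limma adjusted p = 1, 1.47% of genes called lower). *pcdh8.2.S* averaged 19.4 ± 7.01 TPM in Control-IAA and 18.9 ± 9.53 TPM in Wt-IAA embryos of frog 1, with 4.44 ± 2.21 and 5.36 ± 0.545 TPM in frog 2 (SD, n = 3). Its changes were 0.08 ± 0.233 and −0.31 ± 0.163 (limma adjusted p = 1 and 0.663).

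In control embryos the mean levels with and without auxin differed by less than the SD of the Control-IAA pools, for each copy and frog. Both arms of these comparisons took part in the choice of the gene, so they are described without a test. In control embryos *pcdh8.2.L* was at 8.42 ± 0.696 TPM with auxin and 8.87 ± 5.05 TPM without it in frog 1 (SD, n = 3). Controls of frog 2 were at 2.65 ± 0.426 TPM with auxin and 2.18 ± 2.01 TPM without it (SD, n = 3). The fitted changes were 0.04 ± 0.232 and 0.38 ± 0.200, and the second was 0.77 without pool 2.3. *pcdh8.2.S* changed by 0.13 ± 0.233 and 0.05 ± 0.163 in controls. In treated embryos the fitted changes were −0.06 ± 0.232 and 0.29 ± 0.200 for the L copy and 0.02 ± 0.233 and 0.37 ± 0.163 for the S copy (± SE, n = 3).

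In the order of group means at 7.5 hpf, both treated groups were lowest for each copy in each frog. They overlapped each other except for *pcdh8.2.S* in frog 2, where all Treated+IAA libraries lay above all Treated-IAA libraries. For *pcdh8.2.L* wild type embryos were highest in both frogs. In frog 1 they overlapped the control groups, and in frog 2 all wild type libraries lay above all Control+IAA libraries. For *pcdh8.2.S* the Control+IAA, Control-IAA and Wt-IAA groups of frog 1 overlapped one another, and in frog 2 all Control+IAA libraries (4.11 to 4.53 TPM) lay below all Wt-IAA libraries (4.79 to 5.87 TPM). In frog 2 the lowest Control-IAA pool of *pcdh8.2.L*, at 0.727 TPM, lay below the highest Treated+IAA pool, at 1.26 TPM, a pair from different schemes. Likewise the lowest Control-IAA pool of *pcdh8.2.S*, at 2.11 TPM, lay below the highest Treated+IAA pool, at 2.31 TPM.

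The S copy supplied more of the summed TPM than the L copy in 15 of 15 libraries of each frog at 7.5 hpf. The L copy made up 23.0% to 38.5% of the sum in frog 1 and 22.0% to 43.1% in frog 2. Its share averaged 25.2% ± 2.53 in Treated+IAA and 29.2% ± 4.35 in Control+IAA embryos, 26.6% ± 3.85 in Treated-IAA and 30.4% ± 5.39 in Control-IAA embryos, and 36.2% ± 3.35 in Wt-IAA embryos of frog 1 (SD, n = 3). In frog 2 it averaged 29.4% ± 6.34 in Treated+IAA and 38.0% ± 2.59 in Control+IAA embryos, 28.0% ± 3.07 in Treated-IAA and 29.5% ± 9.96 in Control-IAA embryos, and 41.2% ± 2.77 in Wt-IAA embryos (SD, n = 3). The mean share was highest in wild type embryos in both frogs. This share was not tested, and how kallisto splits reads between copies of similar sequence is uncertain.

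At 7.5 hpf a globin signal was higher in treated than in control embryos, while *pcdh8.2* was lower. By the study's methods the injected constructs carry globin untranslated regions. The globin gene *hbg1.L* is taken here as a readout of the injected mRNA, because it was high in injected and near 0 in wild type libraries. That its reads come from the constructs is an inference and was not checked by sequence. It had 15234 to 24286 TPM in Treated+IAA and 6696 to 11809 TPM in Control+IAA embryos of frog 1, and 17722 to 27973 TPM in Treated-IAA and 5686 to 14260 TPM in Control-IAA embryos. Wild type embryos of frog 1 had at most 0.678 TPM. In frog 2 it had 3853 to 8261 TPM in Treated+IAA and 1844 to 5194 TPM in Control+IAA embryos, and 7625 to 12848 TPM in Treated-IAA and 2240 to 6150 TPM in Control-IAA embryos, with at most 0.282 TPM in Wt-IAA embryos. Treated embryos held more of this signal than controls of the same scheme, with an overlap only in the window scheme of frog 2. Within the groups, the pool with the least *hbg1.L* was the pool with the most *pcdh8.2.L* in 6 of 8 injected groups (4 per frog) and with the most *pcdh8.2.S* in 5 of 8. The high Control-IAA pools were among them, 1.3 with 5686 TPM and 2.3 with 2240 TPM of *hbg1.L*. The reverse was also seen in both frogs. In frog 1 the Control+IAA pool with the least *hbg1.L*, 1.3 with 6696 TPM, had the least *pcdh8.2.S*, though the most *pcdh8.2.L*. In frog 2 the Control+IAA pool with the most *hbg1.L*, 2.3 with 5194 TPM, had the most of both copies. The Treated-IAA pool with the least *hbg1.L*, 2.1 with 7625 TPM, had the least of both copies. Treated embryos received 11 ng and control embryos 4 ng of Kdm5b mRNA, so the amount of mRNA and the depletion cannot be told apart by group, and the part of the amount within groups was not tested.

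**Figure D4:**
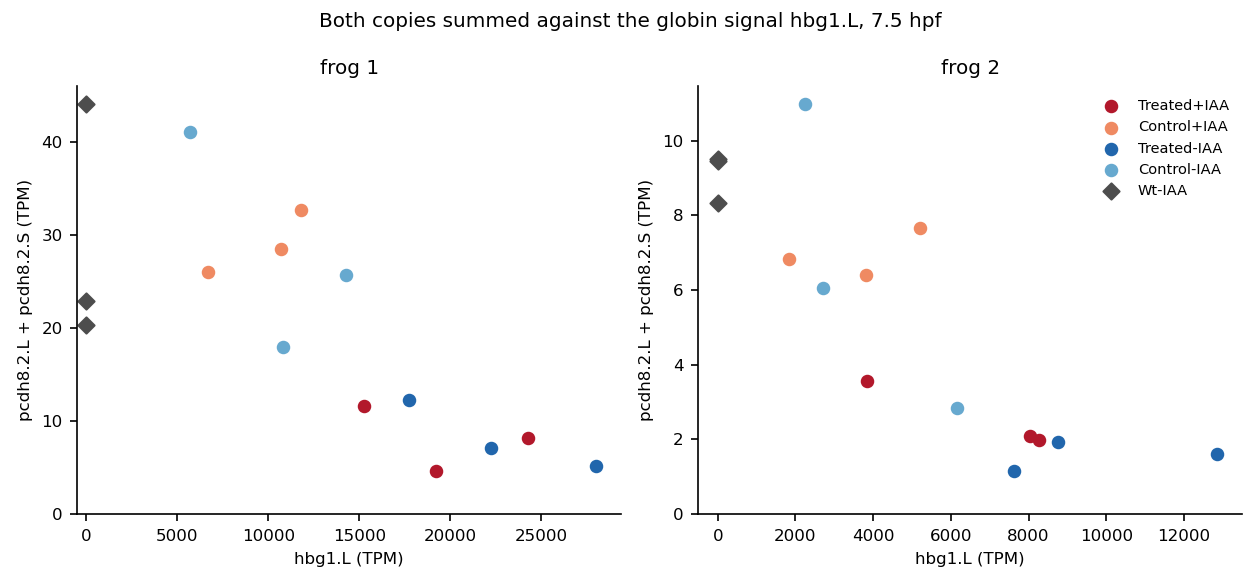
Sum of both *pcdh8.2* copies (TPM, vertical) against *hbg1.L* (TPM, horizontal), taken as a readout of the injected mRNA, in each library at 7.5 hpf, with 1 panel per frog. Treated libraries lie at higher *hbg1.L* and lower *pcdh8.2* than most control libraries, and wild type libraries (diamonds) lie at the left edge.

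Genes with a similar time of onset give a context for the size of the change. A set of 25 genes, both copies included, had under 0.5 TPM at 6.5 hpf and at least 3 TPM at 7.5 hpf in wild type embryos of both frogs, with limits set after the values of *pcdh8.2* were seen. The other 23 had a median change of −0.50 and −0.69 under the window scheme and of −0.70 and −0.64 under the persistent scheme, against medians over all genes of 0.06 and 0.03 and of 0.08 and 0.16. In frog 1 both *pcdh8.2* copies were below all 23 in both schemes. In frog 2, 5 of the 23 were below *pcdh8.2.L* and 7 below *pcdh8.2.S* under the window scheme, and 4 and 1 under the persistent scheme. The medians of the late-onset genes were thus below those of all genes, with *pcdh8.2* toward the lower end. As *pcdh8.2* was chosen on these same changes, its place among the late-onset genes follows from that choice.

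**Figure D5:**
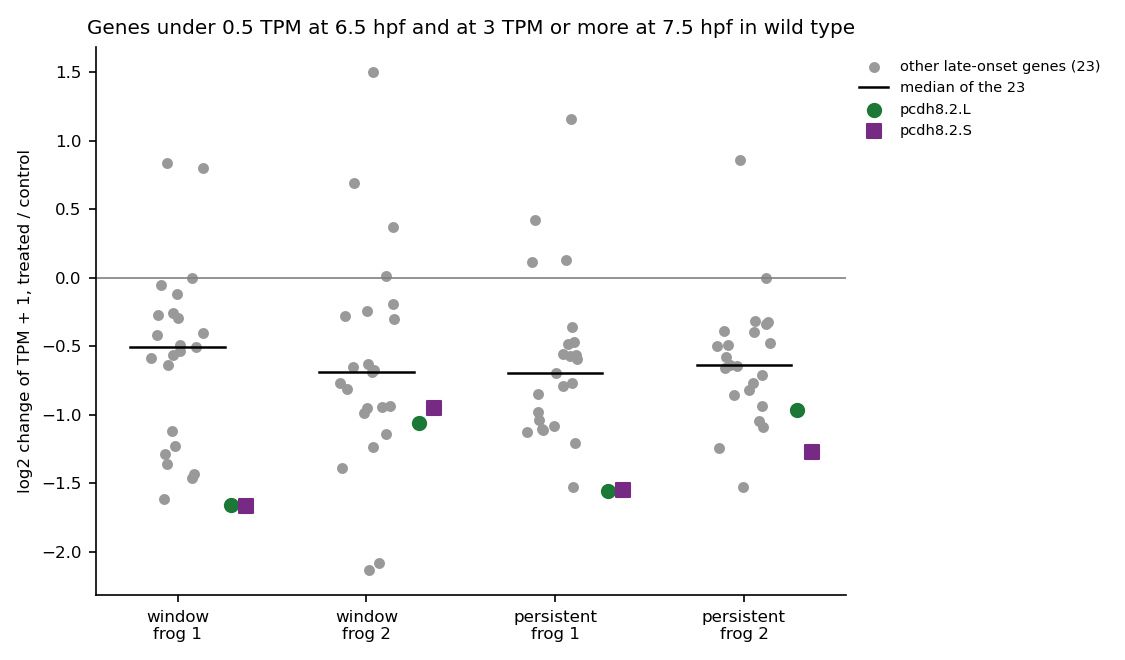
Log2 change of TPM + 1, treated over control at 7.5 hpf, of the 25 genes with late onset in wild type embryos, by scheme and frog. Grey points are the other 23 genes, the black bar is their median, and the coloured marks are the *pcdh8.2* copies. The medians lie between −0.70 and −0.50 and the copies, which were chosen on these changes, lie below them in all 4 columns.

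Over the 30 group means, centred within each frog, the copies tracked each other with a Pearson correlation of 0.989, a description over groups that share frogs and libraries. Among 19579 genes compared, the 6 most like both copies were *alpl.L*, *gata6.S*, *rgs1.L*, *nradd.S*, *arl4c.S* and *osr2.L*, with the lower of their correlations with the L and S copies between 0.984 and 0.992. In all, 47 genes exceeded 0.95. The group means include the treated and control embryos at 7.5 hpf. Levels of these genes below control in treated embryos are therefore part of the pick and no separate result. With rank correlations *rgs1.L* was the 1 gene of the 6 that stayed among the top 6. *gata6.S*, a zinc finger transcription factor of endoderm and heart, averaged 2.08 TPM in Treated+IAA and 6.52 TPM in Control+IAA embryos, 1.83 TPM in Treated-IAA and 4.76 TPM in Control-IAA embryos, and 4.49 TPM in Wt-IAA embryos of frog 1 at 7.5 hpf. *alpl.L*, an alkaline phosphatase, averaged 2.33 TPM in Treated+IAA and 6.08 TPM in Control+IAA embryos, 2.35 TPM in Treated-IAA and 6.05 TPM in Control-IAA embryos, and 6.83 TPM in Wt-IAA embryos of frog 1.

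Only 8 copies of other protocadherins were tested in both frogs, and no copy was called under depletion in both. At the shares of all genes given below, so few copies carry no result about the family. Shares of all genes called in both frogs are not given, here or for the lists that follow. Of 24 other family members 10 were tested in frog 1 and 9 in frog 2. Under the window scheme 0 and 2 were called lower and 0 and 0 higher, where 0.0431% and 1.28% of all genes were called higher. Under the persistent scheme 0 and 2 were called lower and 0 and 1 higher, where 0.0527% and 13% of all genes were called higher. The shares of all genes called lower, given above, were 0.579% and 1.87% for the window and 0.641% and 2.19% for the persistent scheme. The family median was 0.00 and 0.01 under the window scheme and −0.05 and 0.14 under the persistent scheme. With wild type development from 6.5 to 7.5 hpf, *pcdh18.L*, *pcdh18.S* and *pcdha13.L* rose and *pcdh20.S* fell in both frogs. *pcdh18.S* changed by 1.65 and 0.91 in this interval (limma adjusted p = 4.11e-07 and 2.5e-07). It averaged 0.31 TPM in Treated+IAA and 1.21 TPM in Control+IAA embryos of frog 2 at 7.5 hpf, and its window change was called in this frog (−0.77, limma adjusted p = 0.000178) and missed the threshold in frog 1 (−0.19, limma adjusted p = 0.988). *pcdh18.S* and *pcdha13.L* were also lower in Control-IAA than in Wt-IAA embryos in both frogs.

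Among 41 copies of genes that act upstream of or beside mesodermal protocadherins, among them Nodal, Wnt, T-box and homeobox genes, 38 and 35 were tested, and 26 and 24 rose in wild type embryos from 6.5 to 7.5 hpf, with 2 and 6 falling. Over all genes 7.58% and 6.62% rose and 26.2% and 66.8% fell in this interval. Under the window scheme 6 and 8 were called lower (0.579% and 1.87% of all genes) and 0 and 0 higher, with medians of −0.32 and −0.19. Most of the list rises in wild type embryos, so the share of all genes is not a matched background. Of the 23 other late-onset genes, 8 and 9 were called lower under the window scheme and 9 and 11 under the persistent scheme. The counts of lower copies are therefore not read as particular to this list. *lhx1.L*, *tbx6.L*, *tbxt.S* and *wnt8a.L* were called lower in both frogs. Of these, only *tbxt.S* was also called lower in Control-IAA than in Wt-IAA embryos in both frogs (−0.99 and −1.09, limma adjusted p = 0.0089 and 0.00172). In that comparison *tbx6.L* was called lower in frog 1 alone (−0.55, limma adjusted p = 0.0269) and *wnt8a.L* in frog 2 alone (−0.74, limma adjusted p = 0.0407). *tbx6* and *tbxt* encode T-box factors of mesoderm. *lhx1*, a LIM homeobox factor of the organizer that activates paraxial protocadherin in *Xenopus*, averaged 3.59 TPM for its L copy in Treated+IAA and 8.57 TPM in Control+IAA embryos of frog 1 (−1.12, limma adjusted p = 0.00488), and 1.48 and 2.96 TPM in frog 2 (−0.67, limma adjusted p = 0.00728). The window change of *lhx1.S* was not called in either frog (−0.89 and −0.53, limma adjusted p = 0.0930 and 0.0543). The persistent change of *lhx1.L* was called only in frog 2 (−0.48 and −0.71, limma adjusted p = 0.469 and 0.00352). Under the persistent scheme 1 and 14 were lower (0.641% and 2.19% of all genes) and 0 and 4 higher (0.0527% and 13% of all genes), with medians of −0.33 and −0.20, and *wnt8a.L*, a Wnt ligand of ventrolateral mesoderm, was the 1 gene lower in both frogs (−0.81 and −0.69, limma adjusted p = 0.0166 and 0.0229). The Nodal ligand copy *nodal.L* was called lower only in frog 2 under each scheme (window −0.65, limma adjusted p = 0.0163). Its window change in frog 1 was −0.16 (limma adjusted p = 0.988), and the difference between frogs was not tested. Other Nodal ligand copies were called in both directions under the persistent scheme in frog 2. *nodal3.1.L* (−0.67) and *nodal3.2.L* (−0.96) were lower there (limma adjusted p = 0.0326 and 0.0201). *nodal5.L* (0.55), *nodal5.2.L* (0.65) and *nodal6.L* (0.70) were higher (limma adjusted p = 0.0392, 0.00371 and 0.00507). No persistent change of these copies was called in frog 1. Against Wt-IAA, Control-IAA embryos of frog 1 had lower *nodal.L* (−0.67), *nodal3.1.L* (−1.02) and *nodal3.2.L* (−0.97) (limma adjusted p = 0.0168, 0.00204 and 0.0306). *nodal5.L* (1.05) and *nodal5.2.L* (0.96) were higher there (limma adjusted p = 0.000283 and 0.0245). The change of *nodal6.L* was not called (0.74, limma adjusted p = 0.151). In frog 2 this comparison called no change of these copies. The organizer homeobox gene copy *gsc.L* changed by −1.13 and −0.34 under the window scheme (limma adjusted p = 0.0123 and 0.646). Its S copy changed by −1.28 and −0.87 there (limma adjusted p = 0.0942 and 0.0819). Under the persistent scheme both copies were called lower only in frog 2. *gsc.L* changed by −0.78 in each frog (limma adjusted p = 0.173 and 0.0274), and *gsc.S* by −0.88 and −1.18 (limma adjusted p = 0.345 and 0.00617). *ror2.L* and *ror2.S*, copies of a Wnt receptor, averaged 0.31 and 0.77 TPM in Treated+IAA and 0.68 and 1.13 TPM in Control+IAA embryos of frog 1, and *ror2.S* changed by −0.26 there (limma adjusted p = 0.823).

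The list of partners and effectors holds 31 copies of genes for cadherins and other membrane proteins, Wnt receptors and ligands, GTPases, kinases and intracellular signalling proteins of cell movement. Of these 29 and 28 were tested, and 5 and 2 were called lower under the window scheme (0.579% and 1.87% of all genes) with 0 and 0 higher. Under the persistent scheme 4 and 6 were lower (0.641% and 2.19% of all genes) and 0 and 1 higher (0.0527% and 13% of all genes). The medians stayed between −0.06 and 0.05. *flrt3.S*, a transmembrane partner in cell sorting, fell in both schemes and both frogs, by −1.15 and −0.86 under the window scheme (limma adjusted p = 0.00242 and 0.00239). It was also called lower in Control-IAA than in Wt-IAA embryos of frog 2 (−0.65, limma adjusted p = 0.0317), but not of frog 1 (−0.13). *fzd7.S*, a Wnt receptor, averaged 21.2 TPM in Treated+IAA and 37.4 TPM in Control+IAA embryos of frog 1 (−0.79, limma adjusted p = 0.00897) and 16.9 and 29.1 TPM in frog 2 (−0.75, limma adjusted p = 0.00451). Its L copy, at 158.6 TPM in Treated+IAA and 171.5 TPM in Control+IAA embryos of frog 1, changed by −0.11 and −0.22 (limma adjusted p = 0.988 and 0.126). *fzd7.S* was also lower in Control-IAA than in Wt-IAA embryos in both frogs (−0.61 and −0.73, limma adjusted p = 0.0222 and 0.00536). *cdh3.L*, the maternal C-cadherin that holds blastomeres together, had 140.3 TPM in Treated+IAA and 134.1 TPM in Control+IAA embryos of frog 1 (0.06, limma adjusted p = 0.988).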

How the data were processed

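The authors pseudoaligned reads with kallisto 0.48 to transcripts of assembly v10.1 and imported them with tximport. They deposited TPM per gene, not scaled between libraries, in a table for each frog. All columns were assigned to a sample by name (0 left over).

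Entries sharing a gene name were summed and unnamed entries left out (806 in frog 2, at most 0.0744% of TPM). Each frog was analysed alone. Genes at 1 TPM or more in at least 3 libraries were kept (20891 and 20277), and limma 3.58.1 (R 4.3.3) was run on log2(TPM + 1), with a mean for each of 15 groups, 30 residual degrees of freedom and a mean-variance trend. Tests were two-sided, with Benjamini-Hochberg adjustment over the genes of a contrast and a threshold of 0.05. The script was tested on simulated data. TPM hold no depth, so no counting interval is given.

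The members and lists were chosen with earlier results of these data known. Tests of auxin at 7.5 hpf were planned and are not given, since both arms took part in that choice. Named were the members, the 6 genes most like both copies, protocadherins called in both frogs, and *lhx1*, *nodal*, *gsc*, *fzd7*, *ror2* and *cdh3*. Other list genes, *tbx6.L*, *tbxt.S*, *wnt8a.L*, *flrt3.S* and further Nodal ligand copies, were named after their values were seen. Sequences were not analysed here.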

Additional observations from a re-analysis of the deposited data

How the results depend on the processing

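Alternatives were 0.1 TPM added, no filter, rescaling by median ratios, no trend, the libraries of a contrast alone, leaving out rRNA, tRNA, globin and H3.3 genes, a replicate block, and leaving out each pool number. No called direction reversed, and 309 of the values for the comparisons stayed on their side of the threshold or within 1 SD. Of the remaining values 6 were classed as moved, 4 as weaker and 1 as stronger. With 0.1 TPM added, the window change was −2.07 and −1.74 for *pcdh8.2.L* in frogs 1 and 2 and −1.27 for *pcdh8.2.S* in frog 2. In frog 2 the persistent change became −1.73 and −1.77 for the L and S copies, and the injection change of *pcdh8.2.L* was −1.13 and lost its call (limma adjusted p = 0.201), as it did with the contrast alone (−0.76). Leaving out a pool number put that injection change between −1.26 and −0.44 (−0.57 without pool 2.2), the auxin change of *pcdh8.2.L* in frog 2 controls between 0.10 and 0.77, and the persistent change of *pcdh8.2.L* in frog 1 between −2.01 and −0.92. The cause of these shifts was not tested. Same-numbered pools did not deviate together (median correlation −0.0033 and −0.0043 over 315 pairs of groups in each frog), so the numbers do not pair the samples. With the replicate block the injection change of *pcdh8.2.L* in frog 2 stayed at −0.76 (limma adjusted p = 0.0215), and the block changed no call. By Spearman correlation 1 of the 6 most like genes remained.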
